A study of Mus musculus with 12 samples.

Results

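Kainate receptors are ionotropic glutamate receptors, channels that open to cations when glutamate binds, and they work on both sides of the synapse. Each receptor joins 4 subunits. GluK1 to GluK3, encoded by Grik1, Grik2 and Grik3, can form channels by themselves and bind kainate with low affinity, whereas GluK4 and GluK5, encoded by Grik4 and Grik5, bind it with high affinity and reach a working channel only together with a subunit of the first kind. In cortex, Grik1 is known as a transcript of inhibitory interneurons, and GluK2 and GluK5 are the usual partners of principal neurons. The rows of the deposited tables that name 1 of these 5 genes were taken, and all 5 were found at each time point, among 40508 gene names listed in the series.

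The tissue was bilateral prefrontal cortex (frontal association, prelimbic and orbital cortex) of male C57BL/6 mice aged 10 weeks, given repeated intraperitoneal injections of saline or cocaine. Withdrawal before tissue collection lasted 2 h, 24 h or 7 d, which makes 6 groups with saline and cocaine at each time. The saline groups are labelled control. Each group had 2 libraries, each made from the pooled cortex of 5 animals, so 60 animals gave 12 libraries of RNA from whole tissue. The deposited tables give 1 value per group, the FPKM (fragments scaled to transcript length and to the mapped fragments of the library) pooled over its 2 libraries. No spread between libraries can therefore be given, no p-value is attached to any difference, and the depth of the libraries is unknown from the tables. In whole tissue, fewer cells of a type and less RNA per cell cannot be told apart.

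Markers of cortical neurons were abundant in every group. Slc17a7, the vesicular glutamate transporter of excitatory cortical neurons, lay between 466 and 532 FPKM, and Gad1, which makes GABA, lay between 69.3 and 78.1 FPKM. Of 5 olfactory bulb markers, 4 stayed below the FPKM minimum of 0.5 used here, Eomes, Tbx21 and Cdhr1 among them. The locus that names Doc2g also names Nudt8 and lay between 5.83 and 6.71, so this level cannot be given to Doc2g alone. Among striatal markers, Drd2 stayed at or below 0.234 FPKM, Adora2a lay between 0.805 and 1.35 and Rgs9 between 1.37 and 2.41, while Ppp1r1b, which cortex expresses too, was higher (46.4 to 57.7). Of 6 choroid plexus markers, 5 stayed at or below 0.668 FPKM, while Ttr ranged from 0.284 to 6.54 FPKM, with both of these extremes at 7 d, in saline and cocaine respectively. The activity-regulated genes Fos, Arc, Egr1, Nr4a1 and Dusp6 were all higher in cocaine at each time point, with a median log2 ratio of 2.17 at 2 h, 0.99 at 24 h and 0.76 at 7 d. All of them but Arc are genes that the paper reports as changed at every time point of these data. Arc is also among the changed genes that it lists. The shared direction of these genes is therefore no independent check of the tables.

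Grik5 was by far the most abundant subunit. At 2 h its pooled FPKM was 55.0 (saline) and 58.8 (cocaine), at 24 h it was 54.3 and 57.3, and by 7 d it was 41.4 and 48.0. FPKM is scaled to transcript length, so subunits can be set beside each other, and the median of Grik5 over the 6 groups, 54.6 FPKM, was 9.56 times that of Grik2, the next in order. The ranges of these genes over the 6 groups did not overlap. Saline at 7 d had the lowest value and cocaine at 2 h the highest.

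Grik2 and Grik4 followed at a like level. For Grik2 the saline values at 2 h, 24 h and 7 d were 6.17, 5.19 and 5.99 FPKM, and the cocaine values 5.55, 5.76 and 5.67. For Grik4 the saline values in the same order were 4.68, 5.68 and 4.70 FPKM, and the cocaine values 5.85, 5.81 and 4.71. Their medians, 5.71 and 5.20 FPKM, differed by less than the range of either gene, and the ranges overlapped, so their order was not resolved.

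Grik3 and Grik1 were the least abundant. In the order of the time points, Grik3 had 3.30, 3.21 and 2.84 FPKM under saline and 2.98, 3.19 and 3.30 under cocaine. Grik1 had 1.76, 1.86 and 2.15 FPKM under saline and 1.54, 1.94 and 1.91 under cocaine. The lowest Grik3 value lay above the highest Grik1 value, and the lowest Grik4 value above the highest Grik3 value. The median of Grik5 was 28.9 times that of Grik1. The 3 tables were scaled separately by the authors, but over 14175 genes the median log2 difference between saline columns of different tables was at most 0.03 in size (-0.03 for 7 d against 24 h).

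**Figure D1:**
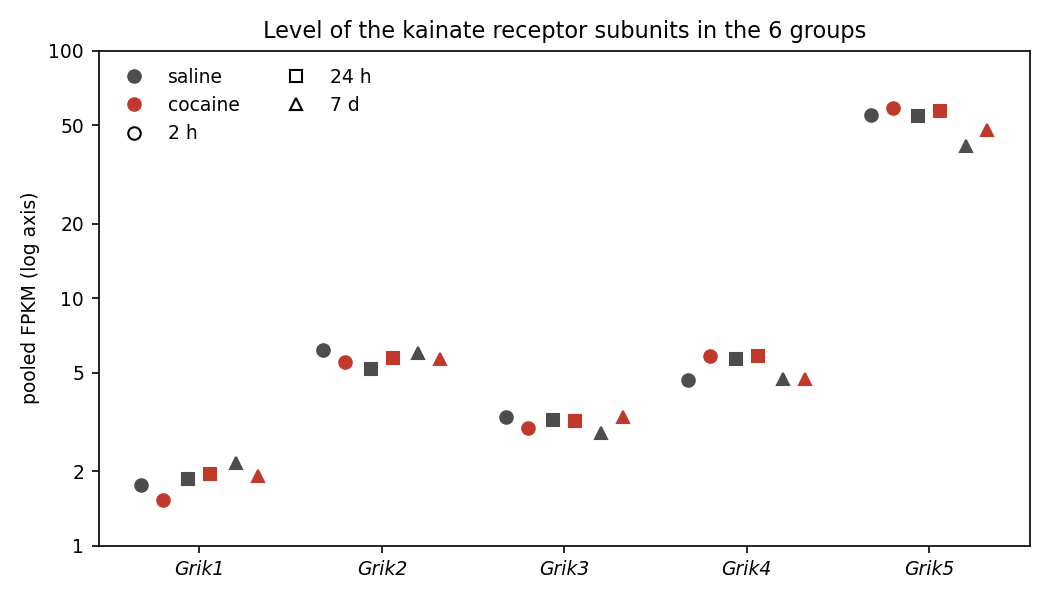
Pooled FPKM (log axis) of each kainate receptor subunit in the 6 groups, with saline in grey, cocaine in red and the marker shape giving the time after the last injection. Each point is the authors' value pooled over 2 libraries, so there are no error bars; Grik5 lies between 41.4 and 58.8 FPKM and no other subunit exceeds 6.17.

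The deposited loci lie on GRCm38, each with at least 99.989% of its length inside the RefSeq protein-coding gene of the same name. The Grik5 locus of the 2 h table covers chr7:25009853-25072369 and that of Grik4 chr9:42518135-42944510. Grik2 lies at chr10:49098367-49788887, Grik1 at chr16:87895914-88290322 and Grik3 at chr4:125490507-125714174. At 24 h alone, Grik2 and Grik3 each had a second locus. That of Grik2, at chr10:49096767-49097970, lies inside the RefSeq gene at the end opposite to its promoter and had 0.804 FPKM in saline and 0.941 in cocaine. The second Grik3 locus had the same span as the first and 0.266 and 0.270 FPKM. The longest locus, and for equal spans the more abundant, was used for each gene.

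The start regions of the high-affinity subunits Grik4 and Grik5 are shown, since Grik4 had the largest cocaine ratio of the family and Grik5 the highest level. Each window runs from 250 bases before to 50 bases after a RefSeq start on GRCm38.p6, read along the minus strand, with CpG dinucleotides in capitals (chr9:42944322-42944621 for Grik4, chr7:25072320-25072619 for Grik5). These starts lie inside the annotated gene spans, whose outer ends on this strand are at 42945000 for Grik4 and 25075694 for Grik5, so the windows do not cover the outermost starts.
Grik4: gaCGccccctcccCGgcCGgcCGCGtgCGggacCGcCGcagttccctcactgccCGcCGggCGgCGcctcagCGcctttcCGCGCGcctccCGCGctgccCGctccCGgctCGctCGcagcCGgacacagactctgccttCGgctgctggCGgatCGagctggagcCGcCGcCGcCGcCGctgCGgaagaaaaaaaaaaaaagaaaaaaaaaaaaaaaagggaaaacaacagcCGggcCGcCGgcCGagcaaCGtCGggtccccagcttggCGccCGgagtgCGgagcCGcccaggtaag
Grik5: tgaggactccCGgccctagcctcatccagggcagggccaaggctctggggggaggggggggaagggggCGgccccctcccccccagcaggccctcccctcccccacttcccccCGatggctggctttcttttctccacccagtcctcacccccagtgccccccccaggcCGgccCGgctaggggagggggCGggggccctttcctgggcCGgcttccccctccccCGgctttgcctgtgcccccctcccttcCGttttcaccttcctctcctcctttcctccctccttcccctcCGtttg
The Grik4 window holds 42 CpG and is 70.0% G and C, and the Grik5 window holds 10 CpG and is 72.0% G and C. Of 32851 RefSeq promoter windows, 2.61% hold more CpG than that of Grik4 and 41.4% more than that of Grik5. Windows were found for 4 of the 5 genes. Searched on both strands, the full cyclic AMP response element TGACGTCA, the AP-1 site TGACTCA, the EGR site GCGGGGGCG and the TATA box TATAAA occur in none of these 4 windows, against 1.79%, 5.2%, 2.91% and 13.6% of all windows. The 5 letters TGACG, which are part of the full response element, occur in the Grik2 window and in 20.8% of all.

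The question of the design was whether cocaine changed expression at each withdrawal time, and it was read here as log2 of cocaine over saline after adding 0.1 FPKM to each value. A gene was said to be past the fold where this log2 ratio was at least 0.3 in size, a ratio of 1.23. The background was every locus with a gene name and a mean FPKM of at least 0.5, and all 5 subunits met that minimum at each time point.

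At 2 h the low-affinity subunits were lower in cocaine and the high-affinity subunits higher, a grouping chosen after the values were seen. Grik4 went from 4.68 to 5.85 FPKM, 24.9% higher, with a log2 ratio of 0.31. It was the only member past the fold, 1 of 5, beside 16.8% of 14888 background loci, of which 9.29% were higher and 7.51% lower, so the count is near the background. Of these loci 15.5% had a larger ratio in size than Grik4. Grik5 had a log2 ratio of 0.10. Grik1 had -0.19, Grik2 -0.15 and Grik3 -0.14, a difference of -12.8%, -10.2% and -9.74% in FPKM. Of the background loci, 32.2%, 39.7% and 41.9% had a larger ratio in size than Grik1, Grik2 and Grik3, and 56.1% than Grik5. The median of the 5 ratios was -0.14, beside 0.02 over the background. In loci with a mean FPKM of at least 5, to which Grik4 belongs, 8.21% were past the fold. Grik4 fell short of the fold in 3 of 5 alternative treatments of the ratio, where it lay between 0.26 and 0.29. Another of the 5, the choice of locus, could not change the ratio, since Grik4 had a single locus.

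At 24 h the subunits differed little between saline and cocaine. None of the 5 was past the fold, beside 12.5% of 15828 background loci (6.33% higher and 6.15% lower). The largest ratio was that of Grik2, at 0.15, which was in the other direction from 2 h. Grik5 had 0.08, Grik1 0.06, Grik4 0.03 and Grik3 -0.0087. The median was 0.06 beside 0.0072 over the background.

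At 7 d Grik5 and Grik3 were the subunits with the higher values in cocaine. Grik5 went from 41.4 to 48.0 FPKM and Grik3 from 2.84 to 3.30, with log2 ratios of 0.22 and 0.21, or 16.1% and 16.0% more FPKM. Grik1 was lower, at -0.16, Grik2 had -0.08, and Grik4 was level at 0.0029. None of the 5 was past the fold, beside 17.9% of 15078 background loci (7.77% higher and 10.1% lower), and the median was 0.0029 beside -0.0086. Both Grik5 values at 7 d were below all 4 of its values at 2 h and 24 h.

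**Figure D2:**
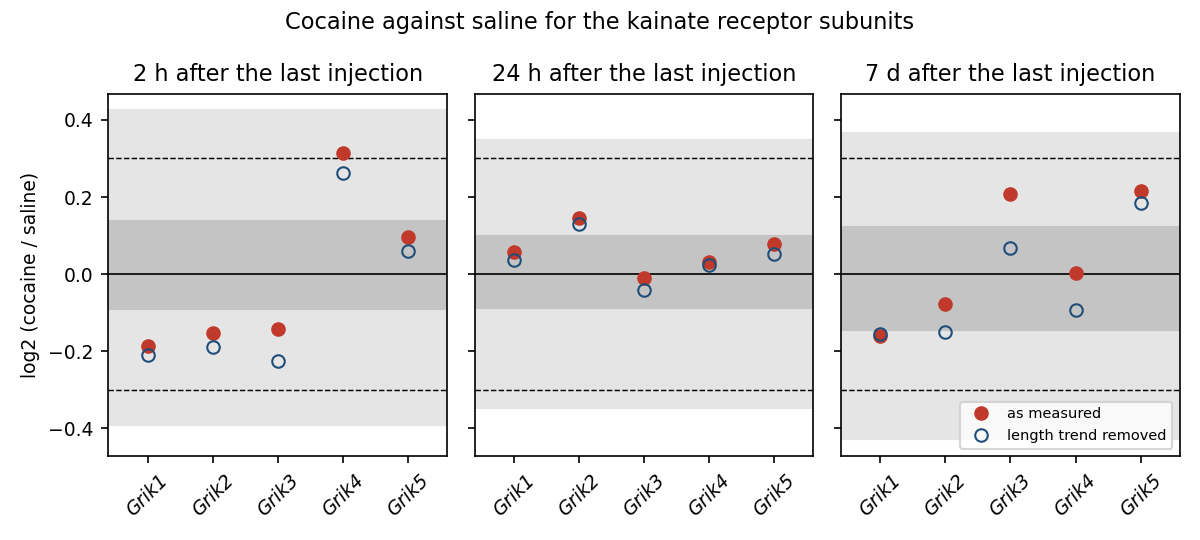
Log2 ratio of cocaine over saline for each subunit, 1 panel per time after the last injection. Filled points are the ratios as measured and open points those with the trend over transcript length removed; the dark and light bands hold the middle 50% and 90% of background loci, the dashed lines mark the fold of 0.3, and only Grik4 at 2 h lies past it.

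Across background loci with a transcript length, the log2 ratio was higher for longer transcripts, with a Spearman correlation across loci of 0.149 at 2 h, 0.073 at 24 h and 0.452 at 7 d. The loci of a table share the same libraries, and these values describe the tables. The Grik transcripts ranged from 2894 nt for Grik1 to 8973 nt for Grik3. With the median ratio of loci of like length taken off, the median of the members at 7 d was -0.09 in place of 0.0029. By gene, Grik3 at 7 d had 0.07 in place of 0.21, Grik5 0.19 in place of 0.22, and Grik4 -0.09 in place of 0.0029. At 2 h the 5 directions were the same with and without this step, at -0.21, -0.19, -0.23, 0.26 and 0.06 for Grik1 to Grik5.

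With no spread between libraries, the saline groups of the 3 time points were the nearest thing to a yardstick. Grik5 had a log2 range of 0.41 over its 3 saline values, the widest of the 5 members, and its largest cocaine ratio was 0.22. For Grik1, Grik2 and Grik3 the saline ranges were 0.27, 0.24 and 0.21, and the largest ratios were 0.19, 0.15 and 0.21. Grik4 alone had a ratio above its saline range, 0.31 against 0.27. So 1 of 5 members exceeded its own saline range, beside 45.1% of 14175 genes. These saline groups differ in time after the injections and in animals, and what moves them was not tested. Their values were also scaled separately by the authors. The Grik4 margin was small, and with the length trend removed its ratio was 0.26, set against a saline range without that step.

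Between times, the Grik3 ratio at 7 d was 0.35 above that at 2 h on the log2 scale, or 0.29 with the length trend removed. The difference of 7 d from 2 h in Grik4 was -0.31, or -0.36 with the trend removed. The Grik2 ratio was 0.30 higher at 24 h than at 2 h, or 0.32 with the trend removed. Grik1 and Grik2 had the same order of ratios, higher at 24 h than at 2 h and 7 d. They were the closest pair of members over the 3 ratios, at a Euclidean distance of 0.13, and Grik1 and Grik4 the farthest, at 0.53. Grik4 and Grik5 had ratios above 0 at every time point, although that of Grik4 at 7 d turned negative with the length trend removed.

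Summed over the 5 subunits, kainate receptor transcripts under saline amounted to 70.9, 70.2 and 57.0 FPKM at the successive time points, and under cocaine to 74.7, 74.0 and 63.6. The share of Grik5 in this sum was 77.5%, 77.3% and 72.5% under saline and 78.7%, 77.4% and 75.5% under cocaine. Since a share is taken within a column, the separate scaling of the tables does not enter it. The high-affinity subunits together had 5.31 times the FPKM of the low-affinity subunits in saline and 6.42 times in cocaine at 2 h. At 24 h this ratio was 5.84 and 5.80, and at 7 d it was 4.20 and 4.85. The 2 h difference came with 64.7 against 59.7 FPKM for Grik4 and Grik5 and 10.1 against 11.2 FPKM for Grik1 to Grik3. At 7 d the low-affinity sum was nearly the same in both groups, 11.0 FPKM in saline and 10.9 in cocaine. This grouping was chosen after the values were seen.

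**Figure D3:**
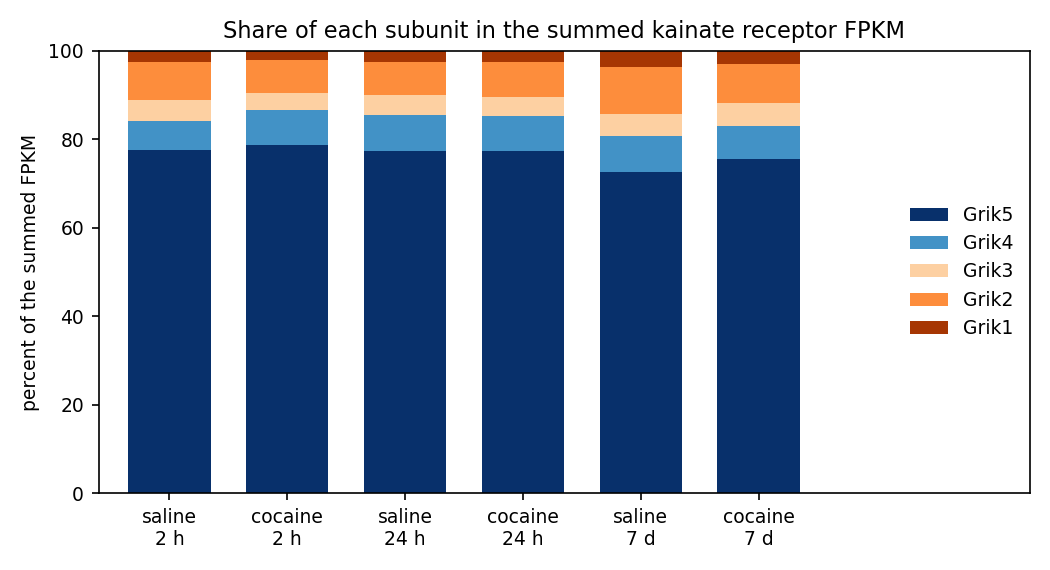
Percent of the summed kainate receptor FPKM contributed by each subunit in each of the 6 groups. Grik5 takes between 72.5% and 78.7% of every bar, with its lowest share in saline at 7 d, and Grik1 takes the least, from 2.05% to 3.77%.

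Neto1 and Neto2 are auxiliary subunits that bind kainate receptors and slow their gating. Neto1 was steady, between 12.1 and 12.8 FPKM over the 6 groups. Neto2 lay between 7.97 and 9.54 FPKM, and its largest ratio was -0.24 at 24 h, from 9.41 to 7.97 FPKM. Neither was past the fold at any time point. Among 18 genes of scaffolds, trafficking proteins, protein modification and RNA editing that act on kainate receptors, 17 met the FPKM minimum. None of these 17 was past the fold at 2 h and 1 was higher at 24 h, with medians of 0.0028 and 0.03. The one at 24 h was Senp1, a protease that reverses a protein modification, and it went from 1.75 to 2.53 FPKM (log2 0.51).

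The other ionotropic glutamate receptors give the context. Of the summed FPKM of all these classes, kainate receptor genes held 18.4%, 17.7% and 15.6% under saline at the 3 time points and 18.8%, 18.1% and 16.5% under cocaine. AMPA receptor genes, which carry most fast excitatory current, held 41.6% to 47.6%, and NMDA receptor genes 33.6% to 36.8%. By level, Grik5 stood between Gria3, with a median of 44.9 FPKM, and Gria2, with 62.3, and its range overlapped that of Gria3 but not that of Gria2, whose lowest value was 60.2 FPKM.

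The AMPA receptor genes Gria1 to Gria4 had ratios between -0.09 and 0.10 over all time points, and 0 of 4 were past the fold. The kainate subunits spread more widely at 2 h, from -0.19 to 0.31, against -0.08 to 0.06 for the AMPA subunits. The classes also differed in level. Grik1 and Grik4, at the ends of the kainate spread, stayed at or below 5.85 FPKM, and no AMPA subunit fell below 20.6 FPKM. Grik5, the member at a level like theirs, had 0.10. The part of expression level in this spread was not tested. NMDA receptor genes were all on the higher side at 2 h (6 of 6 that met the minimum, median 0.09) and at 7 d (6 of 6, median 0.21). At 7 d, Grin2a went from 5.49 to 7.48 FPKM (log2 0.44) and Grin2b from 10.2 to 14.2 FPKM (log2 0.48), the regulatory subunits that set NMDA receptor kinetics, and both were past the fold, 2 of 6, beside the 17.9% of background loci at that time. With the length trend removed they had 0.37 and 0.35, and at 2 h Grin2d and Grin3a then had -0.0022 and -0.05, so the shared direction at 2 h did not hold under that step. The kainate subunits at 7 d were 3 above 0 and 2 below, with none past the fold. Without values per library the difference between these classes could not be tested.

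**Figure D4:**
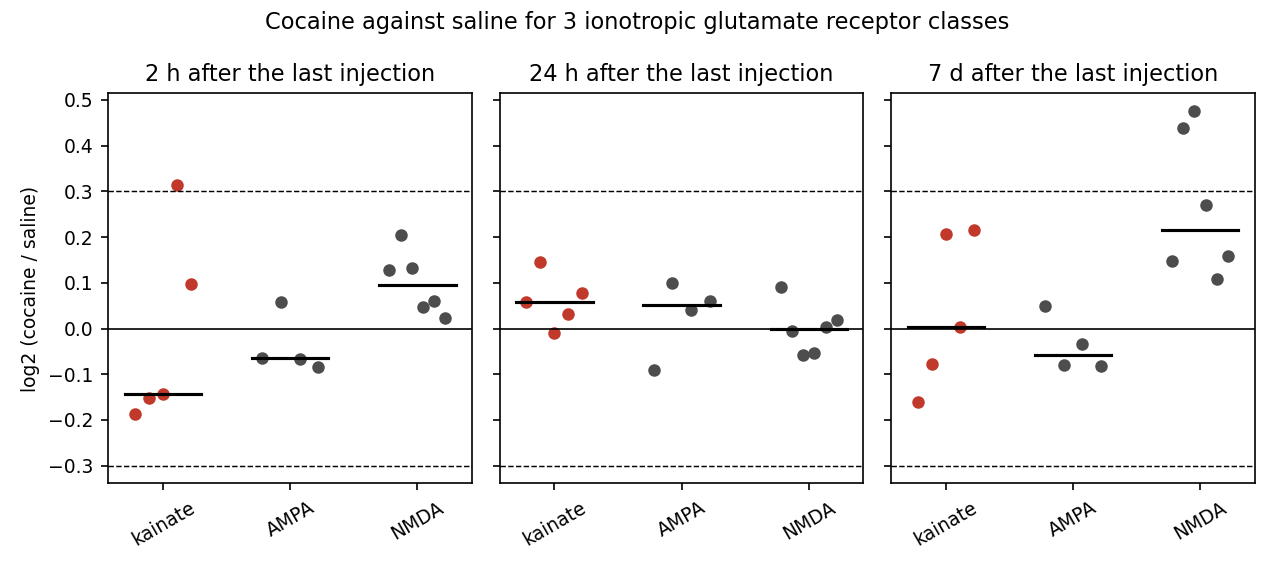
Log2 ratio of cocaine over saline for the subunits of 3 receptor classes at each time after the last injection, with 1 point per gene that met the FPKM minimum, kainate subunits in red, a bar at the class median and dashed lines at the fold of 0.3. Grik4 at 2 h (0.31) and Grin2a and Grin2b at 7 d (0.44 and 0.48) are the points past it.

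Cell markers moved within the same tables. All 5 astrocyte markers were higher in cocaine at 2 h (median 0.16) and at 7 d (0.28), and lower at 24 h (-0.22). Past the fold were Gfap and Aqp4 at 24 h and Slc1a2 at 7 d. Their summed level was 381, 453 and 363 FPKM under saline at the successive time points and 431, 401 and 456 under cocaine. The 5 oligodendrocyte markers were all lower at 24 h (median -0.25), with their sum going from 782 to 649 FPKM. The 6 inhibitory neuron markers, beside which Grik1 can be read, had medians of 0.0018, 0.02 and -0.05 and ratios from -0.19 to 0.06, with 0 past the fold. The 5 excitatory neuron markers had medians of 0.03, 0.03 and 0.05, and 1, Neurod6 at 7 d, was past the fold (log2 -0.41). The 5 oligodendrocyte precursor markers had medians of 0.11, -0.11 and 0.21, with 5 of 5 higher at 7 d. Among them Gpr17 was past the fold at 2 h and 24 h (log2 0.49 and 0.37) and Pdgfra at 24 h (log2 -0.31). The 5 microglial markers had medians of 0.04, -0.13 and -0.06, with 5 of 5 lower at 24 h. The 5 endothelial markers had medians of 0.13, -0.04 and 0.16, with 4 of 5 higher at 7 d and Flt1 past the fold there (log2 0.33). The part of any of these cell types in the subunit values was not tested.

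For each subunit the genes with the most similar set of 3 ratios were sought among 14174 others that met the FPKM minimum in every table, by Euclidean distance. They were Psg16 and Gm11578 for Grik1 (0.02 and 0.03), Stk3 and Sirt5 for Grik2 (0.0045 and 0.02), Zfp697 and Gpr126 for Grik3 (both 0.03), Tgfb1i1 and Cbr3 for Grik4 (both 0.03), and Ick and Ruvbl1 for Grik5 (0.01 and 0.02). None is a glutamate receptor gene. Within a distance of 0.1 lay 272 genes for Grik1, 195 for Grik2, 112 for Grik3, 116 for Grik4 and 371 for Grik5, so these patterns were shared by many genes.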

How the data were processed

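RNA was sequenced from 12 libraries of mouse prefrontal cortex, 2 per group. According to the methods and the submitters' processing notes, polyadenylated RNA was sequenced in read pairs, trimmed (cutadapt in the methods, Trimmomatic 0.32 in the notes) and aligned with TopHat2 2.0.12, reads mapping to 1 place were kept, and Cufflinks 2.2.1 with Cuffdiff compared cocaine with control at each time point. The Cufflinks version given here is that of the notes, and the methods name an earlier one. The methods name mm9 and the notes GRCm38, on which the deposited loci lie. The deposited FPKM values are pooled by the authors over the 2 libraries of a group, 1 table per time point. The authors' own fold changes, test statistics, p-values and q-values in the same tables were not used.

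Log2 ratios were computed with Python 3.11.15, pandas 2.3.3 and numpy 2.4.6 after adding 0.1 FPKM, and plotted with matplotlib 3.10.9. The authors ran each table separately, so columns of different tables are not on 1 common scale. Background loci carried a gene name and a mean FPKM of at least 0.5, and the fold was 0.3. Transcript lengths were those of the longest protein-coding GENCODE transcript of a symbol, known for 80.4% to 81.3% of background loci, in 20 length groups. Steps were tested on simulated data. The planted changes there were larger than any member ratio, so calls of the size seen here were not tested. All 5 subunits, every auxiliary or other receptor gene, list members past the fold and the 2 most similar genes per subunit were eligible to be named. The members and lists were chosen with earlier results of these data known, and the saline ranges, the sums of high- and low-affinity subunits and the omission of failed estimates were added after the values were seen. Alternatives were another pseudocount, centring, length, locus choice, fold and FPKM minimum. Some genes of the lists are not reported here.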

Additional observations from a re-analysis of the deposited data

How the results depend on the processing

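No paired analysis was possible because the deposited values are pooled over the libraries of a group, and for the same reason no library could be left out. Of 75 recomputed member ratios (no pseudocount, 1 FPKM, centring, length trend, locus choice), 74 moved by less than 0.1 and 74 kept their sign. Locus choice could not move any of them, because the longest locus of each gene was also the most abundant. Grik3 at 7 d moved to 0.07 and Grik4 at 7 d turned to -0.09, both with the length trend removed. At 2 h the count of members past the fold went from 1 to 0 with a pseudocount of 1 FPKM, with the median of all loci subtracted, with the length trend removed, and at a fold of 0.5. At 7 d it went from 0 to 2 (Grik3 and Grik5) at a fold of 0.2. The share of background loci past the fold was 8.21%, 4.77% and 11.3% at 2 h, 24 h and 7 d with the minimum raised to 5 FPKM, and 19.8% at 24 h for loci above 0 in both groups. Leaving out loci with a failed estimate, an alternative added after the values were seen, gave 16.9%, 12.5% and 17.9%. The medians of the members moved by less than 0.1, and that at 7 d turned from 0.0029 to -0.09 with the length trend removed. Precision was not assessed. The tables hold neither values per library nor depth, and the authors' own test statistics, p-values and q-values were not used.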
